A study of Solanum lycopersicum with 8 samples.

Results

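LANCEOLATE (LA), PHANTASTICA (PHAN) and CLAUSA are 3 transcription factor genes of tomato leaf development. They were taken by identifier from the 34722 genes of the deposited table, with earlier results of these data known: LA is Solyc07g062680 on chromosome 7, PHAN is Solyc09g010840 on chromosome 9 and CLAUSA is Solyc04g008480 on chromosome 4. The tissue was the shoot apical meristem of tomato (Solanum lycopersicum), dissected from acetone-fixed seedlings that had been grown in a greenhouse, and RNA was sequenced from wild type (WT) and from the late termination (ltm) mutant. Each genotype was sampled with 4 leaves and with 6 leaves, with 2 libraries (A and B) for each of the 4 groups. The locus of the ltm mutation is not given by the labels, so it was not checked in the libraries. The series' design text sets ltm against WT at the same vegetative stage, and WT at the floral transition against vegetative WT. The labels do not say which leaf number stands for the floral transition in WT. WT and ltm libraries with 6 leaves may therefore differ in stage as well as in genotype, and this was not tested. The name LA was matched to a RefSeq symbol on the same chromosome. The names PHAN and CLAUSA rest on the identifier alone.

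Tomato leaves are compound because the leaf margin keeps forming leaflets for some time before it differentiates. LA encodes a TCP transcription factor of the CINCINNATA class whose transcript is a target of the microRNA miR319, and its activity moves the leaf towards differentiation, in part through gibberellin. PHAN encodes a MYB protein related to AS1 of Arabidopsis, a class that keeps class I KNOX genes silent in leaf primordia and takes part in upper leaf identity. CLAUSA encodes another MYB protein, and tomato plants without it make highly divided leaves and express KNOX genes outside the meristem. The KNOX genes themselves keep meristem cells undifferentiated, and NAM-type genes such as GOBLET (GOB) mark the boundaries from which organs and leaflets separate.

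Group means of LA and CLAUSA transcripts were lower in ltm than in WT meristems with both leaf numbers, and PHAN differed little among the 8 libraries. With 4 leaves alone and libraries unpaired, the limma interval was -0.54 to 0.13 for LA and -0.91 to 0.045 for CLAUSA. Neither direction was thus excluded there. With libraries paired as below, it was -0.43 to 0.012 for LA and -0.64 to -0.23 for CLAUSA with 4 leaves. Averaged over both leaf numbers, the difference of ltm from WT was -23.6% for LA and -27.8% for CLAUSA. These values may include a difference in stage between WT and ltm with the same leaf number, which was not tested. Neither the LA nor the CLAUSA difference passed in the comparison of groups of unpaired libraries. Both passed when each ltm library was compared with the WT library of the same leaf number and letter, a pairing adopted after the values were seen. TKN1, a class I KNOX gene, was about 1.95-fold higher in ltm over the same libraries and passed in both comparisons.

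The libraries held between 17895357 and 21987881 reads in genes, and values below are normalised read counts, in which library totals have been made comparable. Values between 485 and 753 reads per library stood behind LA, a counting SD of 3.64% to 4.54%, between 501 and 1047 reads behind CLAUSA (3.09% to 4.47%) and between 9289 and 13114 behind PHAN (0.873% to 1.04%). Fold changes are differences of log2(value + 1) with their standard error from limma, adjusted by the Benjamini-Hochberg method over the 19186 genes tested, with a threshold of 0.05. Nothing in the labels tells whether the A and B repeats were collected from different plants. The p-values therefore cover the spread between libraries alone, and that spread may be technical. Markers of the meristem were present in every library: TKN2 stood between 4388 and 6828, WUSCHEL (WUS), which maintains stem cells, between 152.4 and 245.7, and CLAVATA3 (CLV3), the stem cell peptide, between 85.6 and 330.7.

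In WT with 4 leaves LA stood at 608.6 in library A and 564.8 in library B, a mean of 586.7 ± 31.0 (SD, n = 2). In WT with 6 leaves it stood at 675.1 and 852.8, a mean of 764.0 ± 126. In ltm it stood at 527.9 and 488.5 with 4 leaves (508.2 ± 27.9) and at 478.9 and 543.8 with 6 leaves (511.3 ± 46.0). WT with 6 leaves was therefore the group with the highest LA, WT with 4 leaves came next, and the ranges of both ltm groups overlapped. Every ltm library lay below every WT library, a separation in this direction that 2.41% of tested genes showed. An exact permutation test over the 4 ltm and 4 WT libraries gave p = 0.0286 (two-sided), the smallest that the 70 arrangements can give. It was 1 of 6 such tests on single genes, and 6 more were run on differences between these genes.

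CLAUSA varied more than LA between libraries of the same group. It stood at 812.4 and 683.8 in WT with 4 leaves (748.1 ± 90.9) and at 832.5 and 1186 in WT with 6 leaves (1009 ± 250). In ltm it stood at 603.0 and 504.6 with 4 leaves (553.8 ± 69.6) and at 609.5 and 801.8 with 6 leaves (705.6 ± 136). The order of group means was WT with 6 leaves, WT with 4 leaves, ltm with 6 leaves and ltm with 4 leaves, and the middle groups overlapped. Over both leaf numbers the genotypes overlapped as well, and the exact permutation test gave p = 0.0571. At each leaf number taken alone, both ltm libraries lay below both WT libraries for CLAUSA and for LA. Of all tested genes 11.7% did so with 4 leaves and 21.9% with 6 leaves.

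PHAN kept a narrow range. It stood at 11984 and 10392 in WT with 4 leaves (11188 ± 1126), at 10119 and 10520 in WT with 6 leaves (10320 ± 284), at 10526 and 10418 in ltm with 4 leaves (10472 ± 76.5) and at 9927 and 10501 in ltm with 6 leaves (10214 ± 406). The ranges of all 4 groups overlapped, and library A of WT with 4 leaves was the highest. The highest and lowest libraries differed by 0.27 on the log2 scale, a range smaller than that of all but 9.30% of tested genes. The same range was 0.83 for LA and 1.23 for CLAUSA, against a median of 0.58 over all tested genes.

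**Figure D1:**
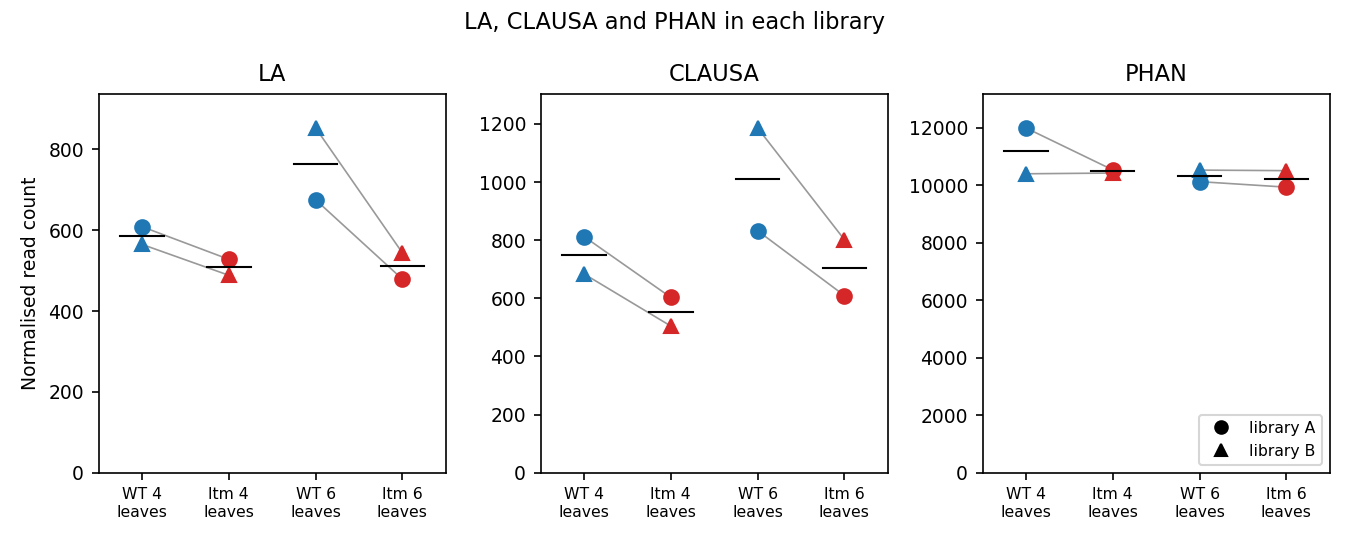
Normalised read counts (linear axes from 0) of LA, CLAUSA and PHAN in each of the 8 libraries, grouped by genotype and leaf number; circles are A libraries, triangles B libraries, black bars group means, and grey lines join WT and ltm libraries of the same leaf number and letter. All 8 lines of LA and CLAUSA slope down from WT to ltm, and PHAN stays between 9927 and 11984.

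Over both leaf numbers the limma fit to groups gave LA a genotype difference, ltm minus WT, of -0.39 ± 0.10 (95% interval -0.63 to -0.15, adjusted p = 0.359). CLAUSA differed by -0.47 ± 0.15 (-0.81 to -0.13, limma adjusted p = 0.453). Both had an unadjusted p under 0.05 (0.0052 and 0.0125), as did 8.58% of all tested genes, 3.68% with a lower value in ltm. After adjustment 8 genes, 0.0417% of those tested, passed, and neither LA nor CLAUSA was among them. For PHAN the difference was -0.053 ± 0.086 with an interval of -0.25 to 0.15 and an adjusted p of 0.898, so small differences in either direction were not excluded by the interval.

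At 6 leaves alone LA differed by -0.57 ± 0.14 (limma adjusted p = 0.621) and CLAUSA by -0.51 ± 0.21 (adjusted p = 0.755). CLAUSA was at -0.25 without library B of WT and at -0.31 without library A of ltm, and at -0.76 without library A of WT. At 4 leaves LA differed by -0.21 ± 0.14 (unadjusted p = 0.191 in limma) and CLAUSA by -0.43 ± 0.21 (0.0702). With 6 leaves 6.45% of tested genes had an unadjusted p under 0.05 and with 4 leaves 2.91% did. After adjustment 1 gene (0.00521%) passed with each leaf number. Whether the LA difference itself changed with leaf number was tested as an interaction, -0.36 ± 0.20 with an unadjusted p of 0.113 in limma, and for CLAUSA it was -0.073 ± 0.29 (0.810). In that test 0.719% of tested genes had an unadjusted p under 0.05 and none passed after adjustment.

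Libraries of WT and ltm that shared a leaf number and a letter deviated together. CLAUSA in library B minus library A was -0.25 (log2) in WT and -0.26 in ltm with 4 leaves, and 0.51 in WT and 0.40 in ltm with 6 leaves. LA followed the same signs, at -0.11 and -0.11 with 4 leaves and at 0.34 and 0.18 with 6 leaves. For both genes the B library was thus the lower one with 4 leaves and the higher one with 6 leaves, in each genotype. The summed value of the meristem markers TKN2, WUS and CLV3, most of it TKN2, had the same order. It was 5381 in A and 4676 in B of WT with 4 leaves, and 5346 and 7358 with 6 leaves. In ltm it was 6521 and 4839 with 4 leaves, and 6548 and 7219 with 6 leaves. Between genotypes the 3 markers differed in direction. CLV3 was lower in ltm in 4 of 4 such pairs (-0.56, -0.66, -0.18 and -0.87), as were 13.9% of tested genes. TKN2 and WUS were each higher in ltm in 3 pairs and lower in 1. The part of the dissected tissue in these differences was not tested.

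Within these pairs CLAUSA was lower in ltm by nearly the same amount each time. The differences were -0.43 and -0.44 in the A and B pairs with 4 leaves and -0.45 and -0.56 with 6 leaves, or -25.7%, -26.2%, -26.8% and -32.4% relative to the paired WT library. Their mean was -0.47 ± 0.063 (SD, n = 4 pairs), and 6.61% of tested genes had a smaller SD across the pairs, for which the median was 0.176. LA differed by -0.20 and -0.21 with 4 leaves and by -0.49 and -0.65 with 6 leaves, which is -13.2%, -13.5%, -29.0% and -36.2% relative to WT, with a mean of -0.39 ± 0.22. PHAN differed by -0.19 in the A pair with 4 leaves and by 0.0035, -0.028 and -0.0027 in the other 3. A lower value in ltm in 4 of 4 pairs was found for LA and CLAUSA and for 13.9% of tested genes.

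With the 4 pairs as blocks, limma gave LA an adjusted p of 0.0319 (95% interval -0.54 to -0.23) and CLAUSA one of 0.0131 (-0.61 to -0.33) for the genotype difference over both leaf numbers. In this fit 427 genes passed, 2.23% of those tested, and 144 of them (0.751%) were lower in ltm. With 6 leaves alone neither gene passed within pairs (limma adjusted p = 0.0599 for LA and 0.0654 for CLAUSA), where 65 genes did (0.339%). With 4 leaves the adjusted p was 0.572 for LA and 0.186 for CLAUSA in limma, and 8 genes (0.0417%) passed. edgeR with the same pairs on the recovered reads gave adjusted p of 0.0320 for LA and 0.0123 for CLAUSA. PHAN did not pass (limma adjusted p = 0.663, interval -0.19 to 0.084). The calls depended on the pairs with 6 leaves. Without the B pair with 6 leaves neither gene passed (limma adjusted p = 0.248 for LA and 0.118 for CLAUSA), and without the A pair with 6 leaves LA did not pass (0.0708) and CLAUSA did (0.0325). The direction was kept in each case, with LA between -0.43 and -0.35 and CLAUSA between -0.50 and -0.44. A sign-flip test on 4 pairs cannot go below an exact p of 0.125, the value that both genes had.

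**Figure D2:**
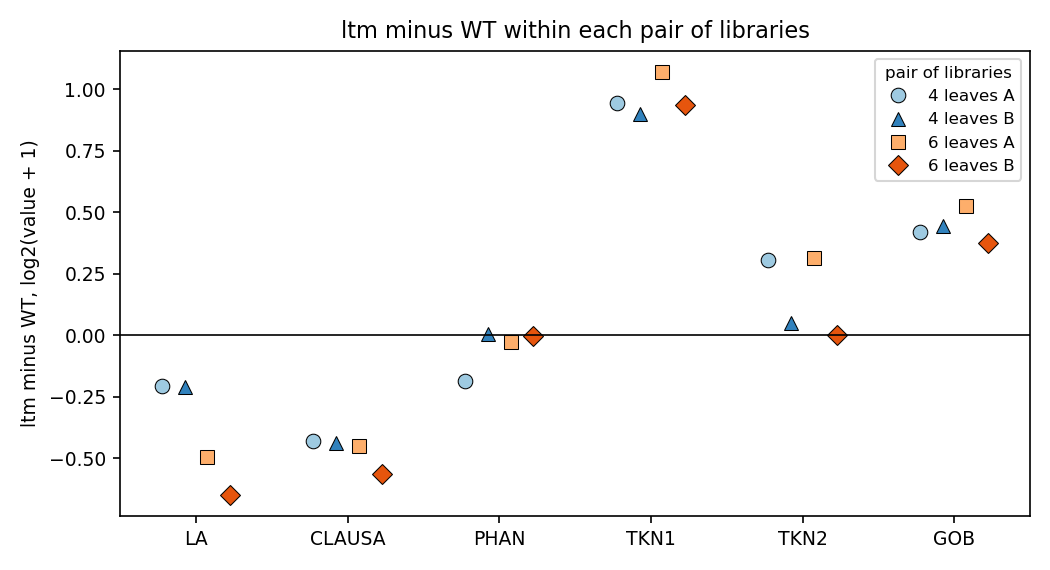
Difference ltm minus WT in log2(value + 1) within each of the 4 pairs of libraries with the same leaf number and letter, for LA, CLAUSA, PHAN, TKN1, TKN2 and GOB; each symbol is 1 pair. LA and CLAUSA lie below 0 and TKN1 and GOB above 0 in 4 of 4 pairs, and the CLAUSA symbols lie between -0.43 and -0.56.

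With leaf number, LA was higher in WT with 6 leaves than with 4 leaves, by 0.37 ± 0.14 on the log2 scale, and differed by 0.0071 ± 0.14 in ltm. The first had an unadjusted p of 0.0333 and an adjusted p of 0.727 in limma, and 6.04% of tested genes had an unadjusted p under 0.05 in that comparison. It was 0.15 between the WT A libraries and 0.59 between the WT B libraries, and 0.20 without library B of WT with 6 leaves. No gene passed after adjustment (0%), in WT or in ltm. CLAUSA differed by 0.41 ± 0.21 in WT (unadjusted p = 0.0812 in limma) and by 0.34 ± 0.21 in ltm (0.139), where 3.19% of tested genes had an unadjusted p under 0.05. In both genotypes both CLAUSA values with 6 leaves lay above both with 4 leaves, as for 20.9% of tested genes in WT and 13.1% in ltm. Here too the B libraries differed more: CLAUSA with 6 leaves minus 4 leaves was 0.79 between the WT B libraries and 0.67 between the ltm B libraries, and 0.035 and 0.015 between the A libraries. Without library B of WT with 6 leaves the WT difference was 0.16. It was above 0 in 4 of 4 such differences, as for 9.96% of tested genes. PHAN differed by -0.11 ± 0.12 in WT and by -0.037 ± 0.12 in ltm. These comparisons share their libraries with those of genotype, so their values are not independent of them.

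Over both genotypes CLAUSA differed by 0.38 ± 0.15 with leaf number (limma adjusted p = 0.512) and LA by 0.19 ± 0.10 (0.559). No gene passed in this comparison in limma, while 9.48% had an unadjusted p under 0.05 and DESeq2 called 52 genes.

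Genotype differences were also compared between the genes themselves. LA minus CLAUSA differed between ltm and WT by 0.081 on the log2 scale (exact permutation p = 0.571), LA minus PHAN by -0.34 (p = 0.0571) and PHAN minus CLAUSA by 0.42 (p = 0.114). These tests take the libraries as unpaired. Within the 4 pairs PHAN minus CLAUSA was above 0 each time (0.24, 0.44, 0.42 and 0.56) and LA minus PHAN below 0 each time (-0.018, -0.21, -0.47 and -0.65), each with the exact sign-flip p of 0.125 that is the smallest for 4 pairs. LA minus CLAUSA was above 0 in both pairs with 4 leaves and below 0 in both with 6 leaves. In the shape of their profiles over the 8 libraries, measured by the root mean square difference of centred log2 values, LA and CLAUSA were 0.15 apart, LA and PHAN 0.25 and PHAN and CLAUSA 0.34. The median tested gene was 0.33 from LA, 0.41 from CLAUSA and 0.20 from PHAN.

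The tested genes with the profile nearest to LA were Solyc02g087930 (0.067), Solyc06g060300 (0.076) and Solyc10g008870 (0.077). Solyc02g087930 stood at 12776 and 11190 in WT with 4 leaves, 13917 and 16488 in WT with 6 leaves, 11925 and 10475 in ltm with 4 leaves and 10038 and 11856 in ltm with 6 leaves. As in LA, WT with 6 leaves was highest and library B was the lower one with 4 leaves and the higher one with 6 leaves. Nearest to CLAUSA were Solyc02g062040 (0.075), Solyc01g091550 (0.095) and Solyc04g040220 (0.098). Nearest to PHAN were Solyc10g006460 (0.027), Solyc01g106480 (0.032) and Solyc05g012460 (0.033), each with its highest value in library A of WT with 4 leaves. All of these genes were picked by their profile over the same 8 libraries, so the shared orders follow from the selection. The files give no annotation for these identifiers.

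The KNOX list held 4 class I genes, the class that PHAN-type and CLAUSA-type MYB proteins hold back in leaves, and PETROSELINUM (PTS), which encodes a KNOX-type protein without a homeodomain. All 5 were tested, and 1 passed for genotype. TKN1 stood at 1583 and 1299 in WT with 4 leaves, 1580 and 1532 in WT with 6 leaves, 3050 and 2424 in ltm with 4 leaves and 3320 and 2929 in ltm with 6 leaves. Every ltm library was above every WT library, as for 3.55% of tested genes, and TKN1 rose by 0.96 ± 0.10 in ltm (limma adjusted p = 0.0360). Its differences within pairs were 0.95, 0.90, 1.07 and 0.93, and it passed there with an adjusted p between 2.26e-06 and 0.00136 in limma whichever pair was left out. In the group fit the call was lost without any single library other than B of ltm with 4 leaves (limma adjusted p between 0.0571 and 0.269, difference 0.88 to 1.03) and with no filter on low values (0.156). TKN2, the tomato counterpart of SHOOT MERISTEMLESS, differed by 0.17 ± 0.13 and TKN3 by 0.14 ± 0.11, without passing. PTS differed by 0.039 ± 0.11 and TKN4 by -0.17 ± 0.13, also without passing. Within pairs 3 of the 5 genes were higher and 1 lower with an unadjusted p under 0.05 in limma, beside 20.4% of all tested genes. The lower one was TKN4, at -0.15, -0.12, -0.12 and -0.31 in the 4 pairs (limma unadjusted p = 0.0184, adjusted p = 0.160). The median genotype difference of the list was 0.14, and 0.15 over the 4 class I genes, beside -0.0047 over all tested genes. With leaf number all 5 were above 0, and none passed the adjusted threshold. Of the class I genes 3 had an unadjusted p under 0.05 in limma, as did 9.48% of tested genes. They were TKN4 at 0.36, TKN2 at 0.32 and TKN3 at 0.28. Their differences were larger between the B libraries than between the A libraries in each genotype. TKN2 went from 4976 to 5027 in WT A and from 4388 to 6828 in WT B. TKN3 went from 1637 to 1592 in ltm A and from 1216 to 1615 in ltm B.

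Of the 9 leaf margin and boundary genes 7 passed the filter on low values, and none passed the adjusted threshold in the group comparison. GOB stood at 3558 and 3050, then 3438 and 3928 in WT with 4 and 6 leaves, and at 4757 and 4151, then 4951 and 5086 in ltm. Every ltm library was above every WT library, by 0.44 ± 0.090 on average (limma adjusted p = 0.239). In limma within pairs GOB passed (adjusted p = 0.0103). It also passed in DESeq2 on the groups (adjusted p = 0.0077), which called 145 genes where limma called 8. In edgeR on the groups GOB did not pass (adjusted p = 0.251). Solyc06g074910, listed as the tomato MYB gene POTATO LEAF (C), was the other list gene with an unadjusted p under 0.05 in the group fit. It differed by 1.41 ± 0.54 (unadjusted p = 0.0306 in limma, adjusted p = 0.531), at values between 13.7 and 121.9. For genotype 8.58% of all tested genes had an unadjusted p under 0.05 in that fit. ENTIRE, an Aux/IAA repressor of auxin response that holds back leaflet formation, differed by -0.11 ± 0.11 and LYRATE (LYR) by -0.068 ± 0.081. The median of the list was 0.12. In limma within pairs 3 of the 7 were higher with an unadjusted p under 0.05 and 0 were lower, beside 20.4% of tested genes. With leaf number Solyc11g069030, listed as BLIND, was at 0.45, the lateral suppressor gene LS at 0.39 and TRIFOLIATE (TF) at 0.29. Each had an unadjusted p under 0.05 in limma, as did 9.48% of all tested genes.

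All 18 leaf polarity genes were tested, and none passed in the group comparison for genotype. The YABBY genes act in the lower side of leaf primordia, and Solyc07g008180 (YABBY5a in RefSeq) was the lowest of the list, at -0.49 ± 0.088 (limma adjusted p = 0.172). In limma within pairs it passed (adjusted p = 0.0233), and it did not in every fit with a pair left out. In DESeq2 on the groups it passed as well (adjusted p = 0.0018), as did 145 genes in all. In edgeR on the groups it did not pass (adjusted p = 0.184). The other genes with an unadjusted p under 0.05 in the group fit were Solyc04g014870, listed as the RNA-dependent RNA polymerase RDR6, at -0.33 ± 0.13 and DCL4, a Dicer-like gene of small RNA production, at 0.28 ± 0.12. Of all tested genes 8.58% had an unadjusted p under 0.05 there, 4.9% higher and 3.68% lower in ltm. The list's median was -0.10, with 11 genes below 0 and 7 above. In limma within pairs 4 of the 18 genes were lower with an unadjusted p under 0.05 and 1 was higher, beside 20.4% of tested genes. Of the HD-ZIP III genes of upper leaf identity, Solyc11g069470, Solyc02g024070 and Solyc03g120910 were lower in ltm in 4 of 4 pairs. This was found for 13.9% of tested genes. Solyc08g066500, Solyc02g069830 and Solyc12g044410 were higher in ltm in 2, 1 and 3 pairs. With leaf number Solyc03g120910 alone of the HD-ZIP III genes had an unadjusted p under 0.05 (0.24 ± 0.086), as did 9.48% of tested genes.

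Of 9 gibberellin genes 7 passed the filter. In the group fit none had an unadjusted p under 0.05 for genotype, with a median of 0.46 and SEs of up to 1.06. Within pairs 3 did, as did 20.4% of all tested genes, and none passed after adjustment: GA2ox4, which inactivates gibberellin, at 1.51, GA20ox2 at -0.78 and GA20ox1 at -1.32 (limma adjusted p between 0.0681 and 0.181). GA20ox2, an enzyme of gibberellin synthesis, stood at 15.5 and 36.5 in WT with 4 leaves, 16.9 and 20.4 in WT with 6 leaves, 8.12 and 21.1 in ltm with 4 leaves and 9.46 and 12.0 in ltm with 6 leaves. It was lower in ltm in 4 of 4 pairs, as were 13.9% of tested genes. In the group fit its difference of -0.78 ± 0.41 did not pass (limma adjusted p = 0.652). PROCERA, the DELLA repressor of gibberellin response, differed by 0.14 ± 0.12. The type-A response regulators, which are induced by cytokinin and dampen its signal, were all 6 tested, and in the group fit none had an unadjusted p under 0.05 for genotype. Within pairs 2 did, beside 20.4% of all tested genes, Solyc03g113720 at -0.24 (limma adjusted p = 0.0733) and Solyc06g048930 at -0.57 (0.244). Neither passed the adjusted threshold. Both were lower in ltm in 4 of 4 pairs, as were 13.9% of tested genes. The median of the list was -0.055. With leaf number Solyc03g113720 was at 0.32 ± 0.12 (unadjusted p = 0.0276 in limma), and 9.48% of all tested genes were under 0.05.

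**Figure D3:**
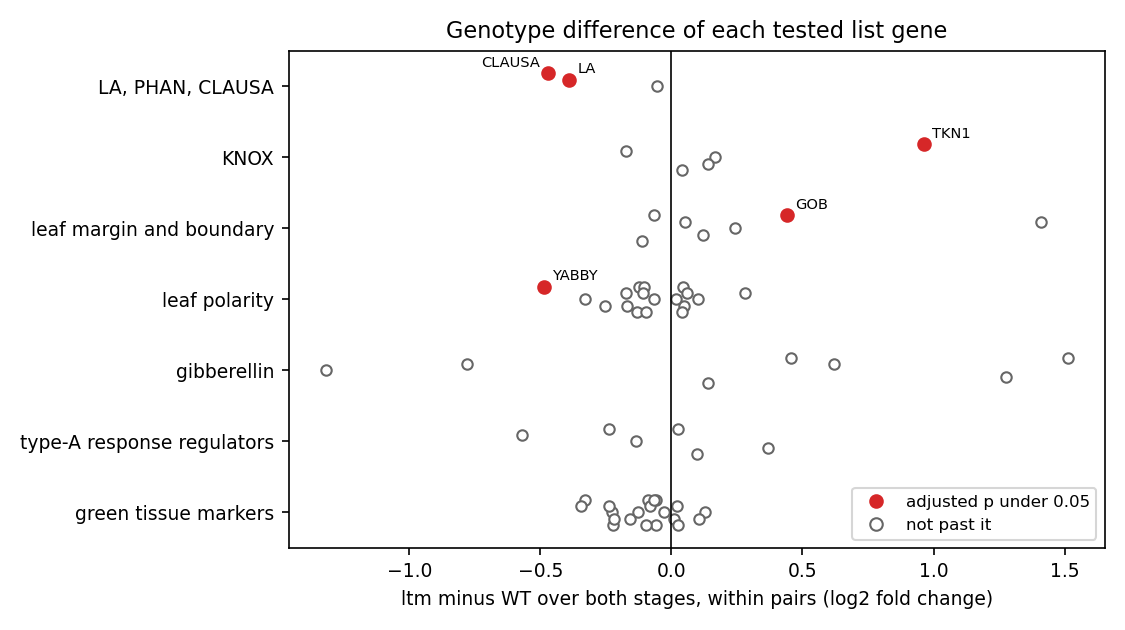
Genotype difference (ltm minus WT, log2 fold change over both leaf numbers, within the 4 pairs) of each tested gene of the leaf development lists and the green tissue markers; filled points passed the adjusted threshold of 0.05 in the paired limma fit. LA, CLAUSA, TKN1, GOB and 1 YABBY gene are filled.

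The leaf primordium markers were compared with LA and CLAUSA. The sum of the 6 YABBY genes lay between 14572 and 16007 in WT libraries and between 12459 and 14800.1 in ltm libraries. All 6 genes had a negative mean genotype difference, 1 of them past the threshold within pairs and lower in 4 of 4 pairs, while the other 5 were higher in ltm in 1 or 2 pairs. None was at 0 in a library. In bulk tissue, fewer primordium cells and less RNA per cell cannot be told apart. The summed YABBY value differed by -0.084, -0.16, -0.36 and -0.074 in the pairs 4 leaves A, 4 leaves B, 6 leaves A and 6 leaves B. Set against that sum, LA was lower in ltm by 0.12, 0.054, 0.13 and 0.57 on the log2 scale in the same pairs. CLAUSA was lower by 0.35, 0.28, 0.088 and 0.49. The largest part of the sum was Solyc01g091010, at 7294 to 9250 in each library. The YABBY gene that passed within pairs, Solyc07g008180, differed by -0.71, -0.24, -0.49 and -0.50, and LA by -0.20, -0.21, -0.49 and -0.65. The part of the primordium share in the LA and CLAUSA differences was not tested beyond these values.

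Green tissue markers (chlorophyll a/b binding protein genes, the small subunit of Rubisco and PSBO, 23 genes with 1 to 2 at 0 in each library) summed to between 26265 and 36098 in WT and to between 24385 and 45593 in ltm. The highest sums were in the B libraries with 4 leaves, at 36098 in WT and 45593 in ltm. In these libraries LA and CLAUSA were lower than in the A libraries of the same groups. With leaf number 19 of the 20 tested green tissue genes were below 0, with a median of -0.50, beside -0.0016 over all tested genes. None passed the adjusted threshold in the group fit. The sum fell more between the B libraries than between the A libraries. It went from 32270 to 28888 in WT A and from 36098 to 26265 in WT B. In ltm it went from 26998 to 24593 in A and from 45593 to 24385 in B. Of the epidermis genes, Solyc02g080260, listed as Woolly, differed by -0.27 ± 0.10 for genotype (unadjusted p = 0.0219 in limma). In that comparison 8.58% of all tested genes had an unadjusted p under 0.05. CD2 did not reach that level and went the other way in most pairs. It was higher in ltm in 3 pairs and lower in 1 (0.33, 0.038, -0.23 and 0.33). Set against the green tissue sum, LA differed in ltm by 0.052, -0.55, -0.26 and -0.54 in the 4 pairs, in the order used above. CLAUSA differed by -0.17, -0.77, -0.22 and -0.46. Set against the epidermis sum, LA differed by -0.34, -0.0061, -0.17 and -0.78, and CLAUSA by -0.56, -0.23, -0.13 and -0.69. The part of green tissue and epidermis in the results was not tested.

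LA and GOB lie on chromosome 7, 13 tested genes apart in identifier order (16 genes of the table), and they differed in opposite directions in ltm. Of the 20 tested genes nearest to LA, from Solyc07g062550 to Solyc07g062790, 17 had a genotype difference above 0 and 3 below, with a median of 0.10. Of these 20 genes 3 were higher with an unadjusted p under 0.05 and 0 were lower, against 4.9% of all tested genes higher and 3.68% lower. The gene with the largest difference, Solyc07g062790 at 1.80 ± 0.47 (unadjusted p = 0.0052 in limma), was the tenth tested gene from LA on the side of GOB. None of the 20 passed the adjusted threshold. Around CLAUSA 8 of 20 neighbours were above 0 and 12 below, and around PHAN 11 were above and 9 below. With leaf number a neighbour of PHAN, Solyc09g010930, differed by -0.43 ± 0.10 (unadjusted p = 0.0034 in limma).

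**Figure D4:**
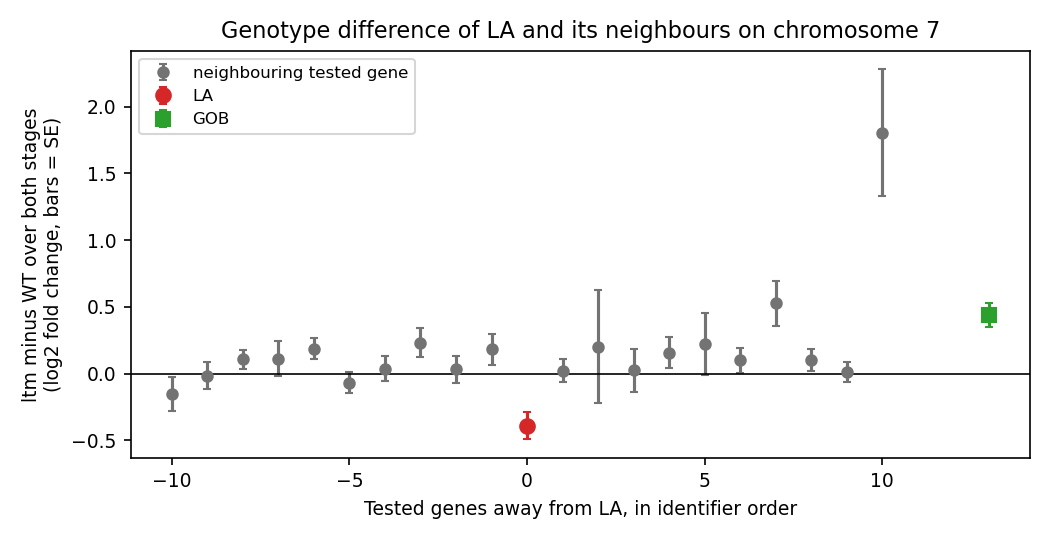
Genotype difference (ltm minus WT over both leaf numbers, log2 fold change; bars are SE from the limma fit to groups) of LA, the 10 tested genes on each side of it in identifier order, and GOB. LA lies at -0.39, the neighbours between -0.15 and 1.80, and GOB, 13 tested genes away, at 0.44.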

How the data were processed

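RNA-seq of 8 libraries was analysed as deposited. The submitters' processing notes name TopHat2 2.0.10, HTSeq 0.6.1p1 and DESeq2 1.6.3. The genome build is not stated in the sources used here. The signal in the deposited table is each gene's read count after the authors' division by 1 size factor for each library: 100% of values were whole multiples of the value of 1 read (tolerance 1e-06), which gave back the reads, with size factors of 0.883 to 1.09. Counting SDs cover counting error only.

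limma 3.58.1 (R 4.3.3, trend) modelled log2(value + 1) with 1 mean for each of the 4 groups, over 8 libraries and the 19186 genes that reached a value of 10 in 2 or more libraries. Fold changes on this scale understate those of low genes. Exact permutation tests used scipy 1.17.1. The fits were tested on simulated data. edgeR 4.0.16 and DESeq2 1.42.0 on the recovered reads, other pseudocounts, no filter, TMM scaling, a replicate block, fits to the compared groups alone and each library left out were alternatives.

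The 4 pairs of WT and ltm libraries with the same leaf number and letter were added as blocks after the values had been seen. Deviations of the A libraries from their group's mean were correlated across genes, at 0.52 between genotypes with 4 leaves, 0.39 with 6 leaves, and 0.13 to 0.37 for the other 4 combinations. This pairing is a hint from the data, and the labels state none.

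The 3 genes, the lists and the tests were chosen with earlier results of these data known, so the lower LA in ltm with 6 leaves is no independent support. Besides them, the text names the 3 nearest profiles of each gene, neighbours with an unadjusted p under 0.01 and list genes with one under 0.05 (up to 4 for each list and comparison), and TKN1, TKN2 and GOB. ENTIRE, LYR, PTS, PROCERA, CD2, the HD-ZIP III genes other than Solyc03g120910, and the gibberellin and response regulator genes with a low p within pairs were named after their values were seen. Of 77 genes on the lists 34 matched a RefSeq symbol (assembly SLM_r2.1) on the same chromosome. Unmatched genes other than PHAN and CLAUSA are given by identifier. RefSeq paired no table identifier with another TCP gene, so that list was empty.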

Additional observations from a re-analysis of the deposited data

How the results depend on the processing

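The 21 log2 fold changes of LA, PHAN and CLAUSA (3 genes in 7 comparisons) were recomputed under 420 alternatives in all. Of these 393 kept direction and side of the threshold, 14 reversed the sign and 13 passed the threshold that the group fit did not reach. The latter were paired fits (replicate block within each stage), chosen after seeing the data: LA -0.39 and CLAUSA -0.47 over both leaf numbers, in limma and in edgeR, and, with pairs left out, LA between -0.39 and -0.57 and CLAUSA between -0.47 and -0.51, with the 6 leaves comparison passing when a pair with 4 leaves was left out. The planned replicate block, one term per letter, changed no call of the 3 genes and gave 20 genes for genotype in place of 8.

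Reversals were found for differences near 0. LA in ltm with leaf number was 0.0071, and -0.049 without both B libraries with 4 leaves. With libraries or pairs left out in turn it ranged from -0.085 to 0.099, and PHAN there from -0.077 to 0.0040. PHAN for genotype ranged from -0.19 to 0.011 with 4 leaves and from -0.056 to 0.025 with 6 leaves. The interaction ranged from -0.026 to 0.18 for PHAN and from -0.33 to 0.18 for CLAUSA. For genotype with 6 leaves LA ranged from -0.74 to -0.40 and CLAUSA from -0.76 to -0.25, and over both leaf numbers LA from -0.47 to -0.31 and CLAUSA from -0.60 to -0.34.

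Counts of genes called depended on the setting. In the order WT with leaf number, ltm with leaf number, genotype with 4 leaves, genotype with 6 leaves, genotype over both, leaf number over both and interaction, they were 0, 0, 1, 1, 8, 0 and 0 in the group fit and 54, 34, 36, 43, 71, 72 and 68 with no filter on low values. DESeq2 called 11, 4, 19, 36, 145 and 52 in the first 6. A pseudocount of 10 gave 1 in WT with leaf number and 2 for genotype with 6 leaves. Fits to the compared groups alone gave 0 for genotype with 4 leaves and 4 with 6 leaves, and the fit without both B libraries with 4 leaves gave 4 with 6 leaves. The paired limma fit called 8, 65 and 427 genes with 4 leaves, 6 leaves and over both, and paired edgeR 8, 57 and 422. With 1 library left out in turn, the group fit called 1 gene with 4 leaves, 1 to 2 with 6 leaves, 1 to 11 over both and 0 for the interaction. With 1 pair left out in turn, the paired fit called 24 to 627, 14 to 1296, 69 to 1842 and 0 to 193. With a pair left out, each gene's own spread in the paired fit came from the pairs with the other leaf number alone. Its part in these counts was not tested.

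With 2 libraries per group, the 95% interval of a genotype difference at 1 leaf number spanned -0.91 to -0.24 for LA with 6 leaves.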
